A study of Danio rerio with 6 samples.

Results

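AP-1 is a transcription factor made of pairs of proteins of the Fos and Jun families, which bind DNA through a basic region and pair through a leucine zipper. Fos proteins need a Jun partner to bind DNA, whereas Jun proteins also pair with each other and with ATF proteins such as ATF3. The genes are known for their rapid response to growth factors, wounding and cell stress, and in zebrafish several of them are known to be switched on in wounds and regenerating fins. The AP-1 genes were taken as the probe sets whose only platform symbol starts with fos or is jun, juna, junba, junbb, junda, jundb or atf3. This gave 7 probe sets, 1 for each of 7 genes, of 15726 probe sets and 11304 genes in all. They were the Fos family genes fosl1a, fosl2, fosab and fosaa, the Jun family genes junba and jun, and atf3. No value was used here for fosb, fosl1b, juna, junbb, junda and jundb, so that 7 of 13 names were measured. A probe set for jund, which the rule does not take, is given beside the others.

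The 6 Affymetrix arrays held total RNA of zebrafish embryos at 48 h after fertilization. In 3 samples the embryos had been injected at the 1-cell stage with a control morpholino, an antisense oligonucleotide without an intended target, and in 3 with MO1, a morpholino against setb. The gene setb is a zebrafish form of SET, whose protein escorts histones and restrains protein phosphatase 2A. The labels give no strain, genetic alteration, morpholino dose or number of embryos, do not say whether MO1 blocks translation or splicing, and do not tie the phenotype classes that were scored (normal-like, mild and moderate) to the arrays. With 1 morpholino in each group, loss of setb and other effects of the injected oligonucleotide cannot be told apart. The transcript of setb itself was slightly higher in MO1 embryos, by 0.19 ± 0.07 (SE, n = 3 and 3), a call that stood under 5 of 12 alternatives, and it does not check the labels.

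The values are log2 intensities after RMA, so that a difference of 1 is a 2-fold change. Array medians lay between 9.47 and 9.49. Precision is limited by the number of arrays. Whether replicates were separate clutches is not in the labels, so errors and p-values rest on the spread within these samples, and that spread may be technical. Each SE is the moderated error of limma, which draws the variance of a gene towards that of all probe sets. For genes of wide spread, such as fosl1a, it is smaller than the error from the gene's own 6 values. The lowest maximum over the arrays of any of the 15726 probe sets was 8.45. Of the 7 AP-1 genes, fosl2, fosab, jun and atf3 were at or above that level in all 6 arrays. The gene fosl1a reached it in 1 control array and all 3 setb MO1 arrays. Values of junba reached it in no control array, and those of fosaa in 2 control arrays and no setb MO1 array. A filter at that level is not stated in the sources, but is assumed here and in what follows. Under it, a probe set that reached the level only in its higher group is among the values through that group alone. This favours a difference in that direction but does not force one. Fold changes at dim levels may be understated.

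These genes were selected on their differences between the groups, fosl1a and junba in first place, which were already known. Their levels and differences are therefore given as a description, without a test. Intensities of different probe sets are not compared, since each responds to its target in its own way.

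The Fos family member fosl1a, the counterpart of mammalian Fra-1, differed most. Its log2 level was 9.33, 8.27 and 8.37 in control replicates 1 to 3 and 10.59, 11.23 and 11.18 in setb MO1 replicates 1 to 3. Every setb MO1 array lay at least 1.26 above every control array, although control replicate 1 stood 1.06 above control replicate 2. The difference was 2.35 ± 0.30 (SE, n = 3 and 3), which is 5.08-fold. Among 11304 genes it had rank 2 by the size of its increase, behind a clone identifier without a gene name. The control spread of 0.58 (SD, n = 3) compares with a median of 0.0969 over all genes. In bulk RNA of whole embryos, more cells that express a gene and more RNA per cell cannot be told apart, here and in each result that follows.

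The Fra-2 counterpart fosl2 was at 10.11, 9.98 and 10.09 in control embryos and at 10.93, 11.15 and 11.07 in setb MO1 embryos. The groups were far apart and the arrays within each close together. The difference was 0.99 ± 0.08, or 1.99-fold.

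The zebrafish genome holds paired counterparts of mammalian c-Fos, fosab and fosaa, and their measured differences were unlike. The gene fosab was at 11.54, 11.32 and 11.30 in control and 11.88, 12.17 and 12.02 in setb MO1 embryos, a difference of 0.63 ± 0.10 (1.55-fold) without overlap of the groups. By contrast fosaa was at 8.66, 8.56 and 8.29 in control and 8.28, 8.45 and 8.32 in setb MO1 embryos. Its groups overlapped, and the difference was −0.15 ± 0.10, measured on a probe set below 8.45 in all setb MO1 arrays, where changes may be understated. The probe set is among the values through 2 control arrays alone, which favours a negative difference, so that its sign is not read. The log2 ratio of fosab to fosaa within an array was 2.76 to 3.01 in the control arrays and 3.60 to 3.73 in the setb MO1 arrays, a shift of 0.79, of which the level cannot be read and the size rests on the dim probe set of fosaa.

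**Figure D1:**
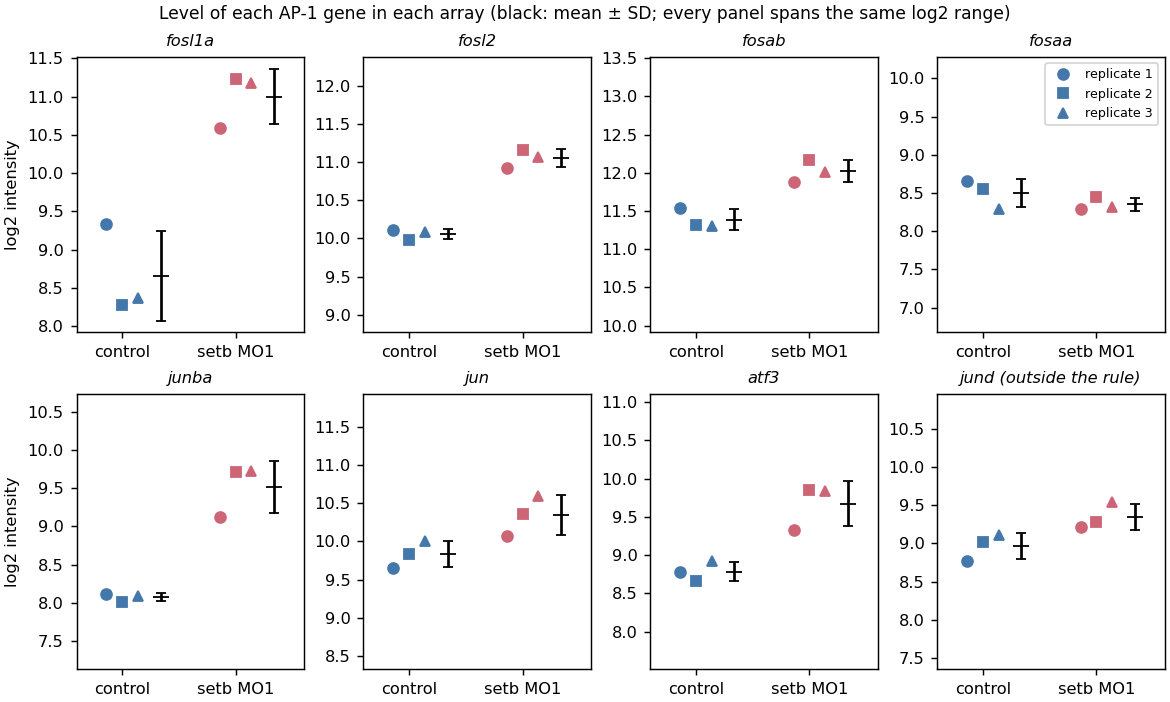
Log2 intensity (y axis) of the 7 AP-1 genes and of jund in each control (blue) and setb MO1 (red) array, with markers for replicates 1 to 3 and the mean ± SD in black beside each group. The groups lie apart for all genes shown but fosaa, by 1.26 for fosl1a and 1.01 for junba at the closest, and setb MO1 replicate 1 is the lowest of its group in each panel.

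Of the Jun family, junba, a counterpart of JunB, differed most. Its level was 8.11, 8.01 and 8.09 in the control arrays, within 0.10 of each other, and 9.12, 9.71 and 9.73 in the setb MO1 arrays. The gap between the groups was 1.01, and setb MO1 replicate 1 lay 0.60 below replicate 3. The difference was 1.44 ± 0.16 (SE, n = 3 and 3), or 2.72-fold, at rank 31 of all increases. Values of junba reached 8.45 in the setb MO1 arrays alone, which favours a positive difference, while the dim control level may understate the fold.

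The c-Jun gene jun was at 9.66, 9.84 and 10.001 in control and 10.07, 10.36 and 10.59 in setb MO1 embryos. Its groups came within 0.07 of each other without overlapping, and the difference was 0.51 ± 0.15 (1.42-fold). The JunD gene jund, outside the rule, was at 8.77, 9.02 and 9.11 in control and 9.21, 9.29 and 9.54 in setb MO1 embryos, a difference of 0.38 ± 0.12. The log2 ratio of junba to jun within an array shifted by 0.93 between the groups. The size of that shift rests on the probe set of junba, which was below 8.45 in all control arrays.

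The stress-induced gene atf3, whose protein pairs with Jun proteins, was at 8.77, 8.67 and 8.92 in control and 9.33, 9.85 and 9.83 in setb MO1 embryos. The groups were 0.42 apart, with a difference of 0.89 ± 0.15, or 1.85-fold.

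By difference the genes ran from fosl1a through junba, fosl2, atf3, fosab and jun to fosaa. The differences of fosl2 and atf3 were closer to each other than the error of atf3 (0.15), and those of fosab and jun closer than the error of jun (0.15). At a Benjamini-Hochberg adjusted p of 0.05 in limma, 6 of 7 lay past the threshold with higher values in setb MO1 embryos and fosaa did not pass, against 23.9% of all genes called higher. Groups did not overlap for the same 6 genes, against 30.6% of all genes with setb MO1 higher. Nothing is read from these counts, since the genes were proposed from this contrast. Leaving out control replicate 1 or 2 or setb MO1 replicate 2 or 3 took jun back across the threshold, and leaving out control replicate 3 brought fosaa past it, at −0.26.

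**Figure D2:**
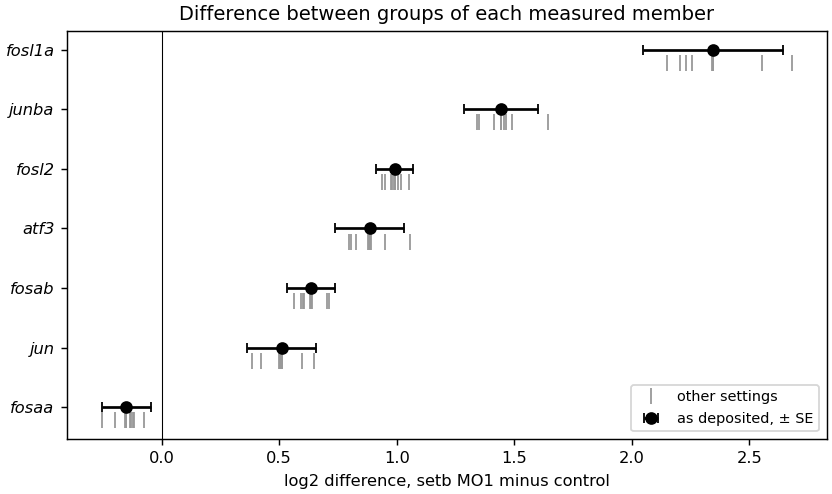
Log2 difference of setb MO1 minus control (x axis) for the 7 AP-1 genes, with black points for the values as deposited ± SE and grey ticks for the values under the other settings, left-out arrays included. The ticks of fosl1a span 2.15 to 2.68 and those of fosaa −0.26 to −0.07, and no gene crosses 0.

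Within the setb MO1 group the AP-1 genes shared their lowest array. Replicate 1 was the lowest of the 3 for all 7 genes, with a median deviation of −0.27 from the group mean. Over the 2702 genes called higher, replicate 1 was the lowest for 43.3%, and their median deviation there was −0.02. In the control group replicate 1 was the highest for 5 genes and replicate 3 for the other two, jun and atf3.

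Profiles near those of the 2 leading genes were ranked by the root mean square difference of the centred log2 values over the 6 arrays. This is a description of likeness, and part of it comes from the difference between the groups that they share. Nearest to fosl1a, at 0.34 to 0.45, were cdkn1a, irf1b, duox, cart3 and mmp9. They include a p53-induced inhibitor of the cell cycle (cdkn1a), an interferon regulatory factor (irf1b), the hydrogen peroxide-producing oxidase duox and the matrix metalloproteinase mmp9. The level of mmp9 was 8.34, 8.16 and 8.39 in control and 9.34, 10.48 and 10.45 in setb MO1 embryos. Like fosl1a, mmp9, irf1b and cart3 were lower in setb MO1 replicate 1 than in the other two, while cdkn1a stood at 10.98, 10.99 and 11.02 there.

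Nearest to junba, and closer than any gene to fosl1a, was timp2b at 0.07, an inhibitor of metalloproteinases. Its level was 11.11, 11.02 and 11.06 in control and 12.07, 12.65 and 12.52 in setb MO1 embryos. It was followed by the secreted chaperone gene clu (0.13), the macrophage gene mpeg1.2 (0.15), tmem14cb (0.17) and sat2b (0.18). Values of mmp9, cart3, mpeg1.2 and sat2b, like those of junba, reached 8.45 in no control array.

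**Figure D3:**
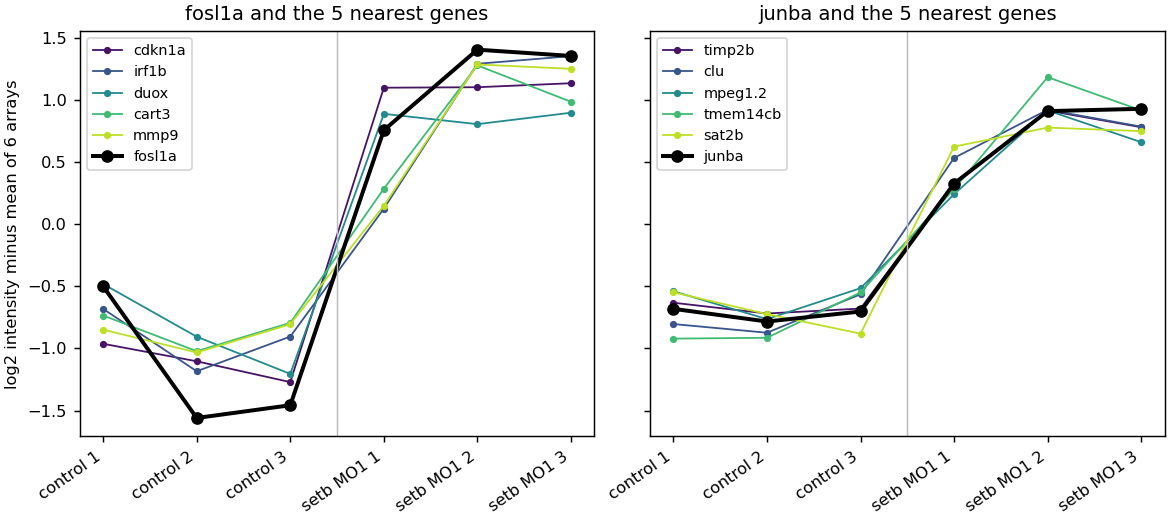
Log2 intensity minus the mean of the 6 arrays (y axis) in each array (x axis) for fosl1a and junba (black) and the 5 genes nearest to each (coloured), with lines that only join the values of a gene. The profile of timp2b differs from that of junba by a root mean square of 0.07, and that of cdkn1a from fosl1a by 0.34.

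Genes listed from general knowledge as AP-1 targets in mammals were mostly higher or not past the threshold. The list holds many members of the mmp and timp families, and control by AP-1 was not checked gene by gene. This list and those that follow were drawn up with earlier results of these data known. Their shares are therefore a description and no independent evidence. Of 86 listed, 51 were measured, of which 23 rose (45.1%, against 23.9% of all genes), 5 fell (9.80%, against 20.8%) and 23 did not pass. Of the genes that rose, 2 of this list and 412 of all genes were below 8.45 in all control arrays. Of those that fell, 0 of this list and 475 of all genes were below it in all setb MO1 arrays. Such genes are among the values through a single group, which favours a difference. They are part of the shares, here and in the lists that follow. The median difference was 0.20, against 0.02 over all genes. Among them timp2b rose by 1.35 ± 0.14, the fibronectin gene fn1b by 0.94 ± 0.08, the autophagy receptor gene sqstm1 by 0.87 ± 0.11 and the gelatinase gene mmp2 by 0.67 ± 0.07 (SE, n = 3 and 3, limma adjusted p at most 0.000895). The gelatinase gene mmp9 (1.79 ± 0.29) and, named after its value was seen, hbegfa, which encodes a ligand of the EGF receptor (1.01 ± 0.16), were also called higher. Both were below 8.45 in all control arrays. They are among the values through the setb MO1 arrays alone, which favours a rise, so that no p is given for them. The interleukin gene il1b (1.03 ± 0.37, limma adjusted p = 0.0541) did not pass. Nor did the collagenase gene mmp13a (0.87 ± 0.34), which was also below 8.45 in all control arrays, so that no p is given. Both il1b and mmp13a were chosen after their values were seen. Their setb MO1 replicate 1, at 8.33 and 8.22, lay within the control range.

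The genes of this list that fell with the smallest p were the tenascin gene tncb (−0.49 ± 0.10, limma adjusted p = 0.00646), mmp11a (−0.21 ± 0.06), the lysyl oxidase gene loxl2b (−0.41 ± 0.12) and mmp14b (−0.22 ± 0.07). The calls on mmp11a, loxl2b and mmp14b were each lost without control replicate 2, control replicate 3 or setb MO1 replicate 2. Those on mmp11a and mmp14b were also lost without setb MO1 replicate 3, and that on mmp11a without setb MO1 replicate 1. With the replicate number as a block, the calls on mmp11a and mmp14b were lost as well. Without setb MO1 replicate 3 the number of listed targets that rose was 15 (29.4%, against 19.0% of all genes in that setting).

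Early response genes, which are switched on by many of the same stimuli as fos and jun, went both ways, with more called higher than lower. Of 53 measured of 80 listed, 22 rose (41.5%, against 23.9% of all genes), 6 fell (11.3%, against 20.8%) and 25 did not pass, with a median of 0.29. Of the genes that rose, 2 were below 8.45 in all control arrays, and of those that fell, 2 in all setb MO1 arrays. The cytokine feedback genes socs3a (1.32 ± 0.12) and socs3b (0.66 ± 0.09), phlda2 (1.01 ± 0.10) and the proto-oncogene myca (0.49 ± 0.06) rose. The nuclear receptor gene nr4a2a, known from dopaminergic neurons, fell (−1.17 ± 0.10). The genes klf11a (−0.48 ± 0.07), trib2 (−0.44 ± 0.07) and trib3 (−0.40 ± 0.07) also fell. Of these genes, socs3a and myca were below 8.45 in all control arrays and nr4a2a and trib2 in all setb MO1 arrays. Each of socs3a, myca, nr4a2a and trib2 is among the values through its higher group alone, so that no p is given for them. The limma adjusted p of phlda2 was 0.000388, of socs3b 0.00101, of klf11a 0.00161 and of trib3 0.00371. The classical immediate early genes egr1 and nr4a1, chosen after their values were seen, did not pass. The zinc finger gene egr1 was at 8.97, 8.68 and 8.75 in control and 8.83, 9.44 and 9.09 in setb MO1 embryos, with overlapping groups (0.32 ± 0.15, adjusted p = 0.130), and the nuclear receptor gene nr4a1 differed by −0.25 (adjusted p = 0.230).

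MAP kinases phosphorylate Fos and Jun proteins and the factors that switch on their genes. Of 70 measured genes of 95 listed, 23 rose (32.9%, against 23.9% of all genes), 11 fell (15.7%, against 20.8%) and 36 did not pass, with a median of 0.11. Of the genes that rose, 2 were below 8.45 in all control arrays, and of those that fell, 3 in all setb MO1 arrays. The ERK kinase gene map2k1 rose by 0.90 ± 0.09, the kinase genes mknk2a and rps6ka3a, whose products act below ERK, by 0.86 ± 0.08 and 0.55 ± 0.06, and map3k21 by 0.63 ± 0.08 (limma adjusted p at most 0.000735). The genes mapk10 (−0.91 ± 0.10), a JNK gene of neurons, mapk4 (−0.69 ± 0.07), braf (−0.48 ± 0.07) and ksr1a (−0.47 ± 0.07) fell. Of these, mapk10 and ksr1a were below 8.45 in all setb MO1 arrays and are among the values through the control arrays alone. Of the other JNK genes, mapk8a fell (−0.41), mapk9 rose (0.26) and mapk8b did not pass (−0.11). Of the 12 genes of dual specificity phosphatases (dusp), several of which remove phosphate from MAP kinases, 9 were called higher, with the largest difference in dusp8b at 1.02. Of these 9, dusp2 and dusp22a were below 8.45 in all control arrays. The gene dusp3a was called lower (−0.33). Of all genes, 23.9% were called higher and 20.8% lower. These JNK and dusp genes were grouped after their values were seen, and nothing is read from their counts. Without control replicate 2 the number of genes of the pathway that rose was 13 (18.6%, against 16.2% of all genes in that setting).

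Other basic leucine zipper genes, some of whose products pair with Fos or Jun proteins, moved both ways. Of 39 measured of 59 listed, 12 rose (30.8%, against 23.9% of all genes), 9 fell (23.1%, against 20.8%) and 18 did not pass, with a median of 0.04. Of the genes that rose, 3 were below 8.45 in all control arrays, and of those that fell, 1 in all setb MO1 arrays. The stress response genes atf5b (0.90 ± 0.10) and atf5a (0.63 ± 0.10), the repressor gene bach1b (0.54 ± 0.09) and atf7a (0.50 ± 0.07) rose. The genes nfil3-2 (−1.09 ± 0.11), bach2b (−0.49 ± 0.09), atf4b (−0.48 ± 0.08) and the photoreceptor gene nrl (−0.36 ± 0.07) fell, with limma adjusted p at most 0.00423 without nrl. Values of nrl were below 8.45 in all setb MO1 arrays, and the gene is among the values through the control arrays alone. Without control replicate 2 the number that rose was 7 (17.9%, against 16.2% of all genes in that setting).

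**Figure D4:**
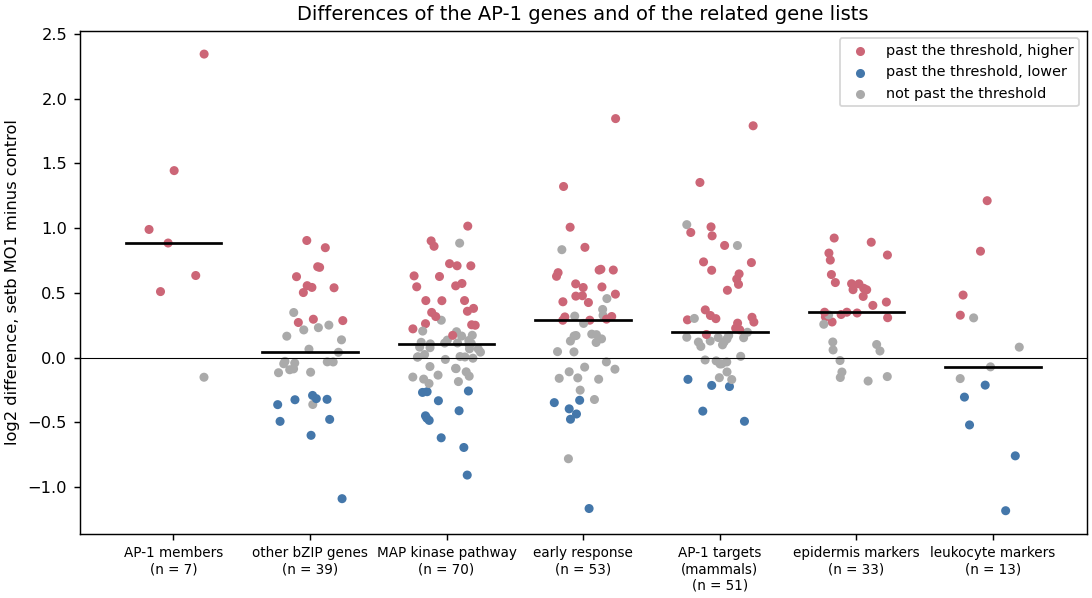
Log2 difference of setb MO1 minus control (y axis) of each gene, for the AP-1 genes and for the related gene lists (x axis), coloured by the call in limma at an adjusted p of 0.05, with the median of each list as a black bar. The medians are 0.89 for the AP-1 genes, 0.20 for the listed AP-1 targets, 0.29 for early response genes, 0.11 for the MAP kinase pathway and 0.04 for other bZIP genes. For the marker lists, also shown, they are 0.35 (epidermis and periderm) and −0.07 (leukocytes).

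Whole embryos hold epidermis and leukocytes, cells in which AP-1 genes are known to be active. Of 33 measured of 41 epidermis and periderm markers, 22 rose (66.7%, against 23.9% of all genes) and 11 did not pass, with a median of 0.35. Of the markers that rose, 1 was below 8.45 in all control arrays. By p in limma the first were cdh1 (0.57 ± 0.06) and pkp3a (0.64 ± 0.07), genes of cell adhesion, icn2 (0.79 ± 0.09) and pkp1b (0.92 ± 0.11). The log2 of their summed intensity was 16.31 to 16.36 in the control and 16.58 to 16.60 in the setb MO1 arrays. Among the 11 that did not pass were tp63 (0.12), krt4 (0.06), krt5 (−0.15) and cyt1l (0.05), named after their values were seen. Of 40 leukocyte markers 13 were measured, of which 4 rose (30.8%, against 23.9% of all genes) and 5 fell (38.5%, against 20.8%). The macrophage gene mpeg1.2 rose (1.21 ± 0.17), as did ctss2.1 (0.82 ± 0.09), tnfrsf1b (0.48 ± 0.09) and cebpa (0.33 ± 0.06), whereas lyz (−1.18 ± 0.08), c3a.1 (−0.76 ± 0.12), mpx (−0.52 ± 0.12) and lcp1 (−0.21 ± 0.07) fell. Of other macrophage genes, csf1ra fell too (−0.30 ± 0.11, limma adjusted p = 0.0497) and mpeg1.1 did not pass (0.31 ± 0.13), both named after their values were seen. The 4 that rose were below 8.45 in every control array, and the call on lcp1 was lost under 8 of 11 alternatives. The log2 of the summed leukocyte intensity was 13.48 to 13.64 in control and 13.21 to 13.29 in setb MO1 arrays. Without lyz and c3a.1, left out after their values were seen, it was 12.62 to 12.73 and 12.70 to 12.77. Such sums weight bright probe sets most, and the median difference of the list was −0.07. The part of these cell types in the levels of the AP-1 genes was not tested.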

How the data were processed

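The table the authors deposited holds log2 intensities, 1 array per sample, made with RMA, per the submitters' processing notes. For its version, software and any filter on dim probe sets, nothing is given in the sources used here. Of 15726 probe sets, 11738 had 1 symbol in the platform annotation, of which 11497 matched a RefSeq table (assembly GRCz12tu, used for names only). Groups and replicate numbers were taken from the labels.

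For each gene the brightest probe set on average was used. The comparison was fitted in limma 3.58.1 under R 4.3.3 (lmFit and eBayes) on all probe sets, two-sided, with Benjamini-Hochberg adjustment over 11304 genes at 0.05. On data simulated with independent noise and 200 of 11304 genes changed, the fit called 63% of the genes changed 1.5-fold, 93% of those changed 2-fold, and 3.70% of its calls were false. In the measured data 5053 genes (44.7%) were called. The adjusted threshold depends on that share, so these rates do not describe the measured comparison.

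The AP-1 genes, the gene lists and the tests were chosen with earlier results of these data known. The genes named were the AP-1 genes, setb, up to 4 genes with the smallest p in each direction of each list, and the 5 genes nearest to fosl1a and to junba, passing over clone identifiers. Genes named outside this rule are marked in the text, apart from jund. Replicate numbers were not used as pairs, since the labels do not say that a number marks a shared clutch. Deviations of same-numbered arrays from their group means had correlations of 0.07, −0.36 and 0.36 across genes. Those of the other pairs ran from −0.38 to 0.40. With 3 arrays in a group, these correlations cannot exclude a pairing. As alternatives, the values were quantile normalised again or set to equal medians, genes under the 30th percentile of mean level were left out, and the fit used a prior with trend and robust estimation, a replicate block, the mean of a gene's probe sets, or all arrays but 1, each array being left out in turn.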

Additional observations from a re-analysis of the deposited data

How the results depend on the processing

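The differences of the 7 AP-1 genes kept their direction and moved by less than the spread between replicates in all 82 values recomputed under 12 alternatives, with junba and fosaa below the filter at the 30th percentile of mean level. The filter and the other prior could not change a difference, since they do not enter its estimate. Nor could the replicate block, since each replicate number had 1 array in each group. The mean of probe sets could not either, since each gene had a single probe set. Leaving out 1 of 3 arrays cannot move a difference by as much as the spread between replicates (the residual SD). It also cannot change the direction where the groups do not overlap. Only the renormalised values could have moved by more, and without single arrays only fosaa could have changed direction. Values under these settings ranged from 2.15 to 2.68 for fosl1a, 1.34 to 1.64 for junba and 0.94 to 1.05 for fosl2. They ranged from 0.80 to 1.05 for atf3, 0.56 to 0.71 for fosab, 0.38 to 0.65 for jun and −0.26 to −0.07 for fosaa. The number of AP-1 genes past the threshold and lower was 0 to 1 without single arrays. All genes called higher numbered 1833 to 2827 and lower 1586 to 2446.

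With the replicate number as a block, the number of listed AP-1 targets that fell was 2 instead of 5. The block left the other counts within 1.5 times, with 2569 genes higher and 2220 lower. Above the 30th percentile of mean level, where fewer genes were tested, the numbers that fell were 5 bZIP genes, 3 early response genes and 6 genes of the MAP kinase pathway. All genes that fell numbered 1586 there, against 2351 without that filter, so that nothing is read from these counts. Without single arrays, the listed AP-1 targets that rose numbered 15 to 23 and those that fell 1 to 4, the bZIP genes that rose 7 to 13, and the genes of the MAP kinase pathway that rose 13 to 24. Of all genes, 1833 to 2697 (16.2% to 23.9%) rose and 1690 to 2317 fell in the same settings. The causes were not tested. Background was not measured here, and values below 8.45, as those of junba in all control arrays and of fosaa in all setb MO1 arrays, may understate a fold. Both genes are among the values through a single group, so that their differences may also be overstated.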
